A study of Mus musculus with 12 samples.

Results

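The 9 genes described here carry the insulin signal from the cell surface to sugar and fat metabolism: Insr, Irs1, Irs2, Akt2, Foxo1, Pck1, Pde3b, Trarg1 and Tbc1d4. They were picked by name from the pathway and not by a rule on their values, though earlier results of these data were known. They are 9 of the 16411 genes in the count table. All 9 passed the filter on low counts, which left 13191 genes to test. RNA from mammary tissue of female mice was sequenced from 6 tumors and from 6 pieces of benign mammary tissue, meaning tissue with no visible tumor taken away from tumors. Both groups came from MMTV-Neu-NDL-YD5 transgenic mice on an FVB background, so the benign tissue carried the transgene too. Its MMTV promoter drives an activated form of the receptor tyrosine kinase Neu (HER2) in mammary epithelium, with a single tyrosine of the receptor's tail restored. The labels name no treatment and no age for any sample. Tumors and benign tissue came from different mice, and nothing in the labels ties a benign sample to a tumor.

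Insulin binds a receptor tyrosine kinase, which phosphorylates docking proteins of the IRS family, and these recruit PI3-kinase and so switch on the kinase AKT. In fat and muscle, AKT phosphorylates the RAB regulator TBC1D4 and lets vesicles with the glucose transporter GLUT4 reach the surface, and in fat it activates the phosphodiesterase PDE3B, which breaks down cyclic AMP and so restrains lipolysis. AKT also keeps FOXO1 out of the nucleus, where it would otherwise drive fasting genes such as Pck1 and, in liver, Irs2. The mammary gland of an adult mouse lies in a fat pad, and its adipocytes are a classical target of insulin.

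Library totals ran from 5240853 to 8588567 counts. Levels are given as CPM (each gene's counts relative to its library's total), scaled by the library sizes of the edgeR fit, with the SD over 6 samples. Differences are log2 fold changes of tumor over benign with their standard error (SE), tested by edgeR's quasi-likelihood method, and an adjusted p (Benjamini-Hochberg over all genes tested) under 0.1 counts as a change. Benign samples 3, 4 and 6 held skeletal muscle transcripts, with 35904 to 92502 CPM summed over 12 muscle genes against 19.6 to 374 CPM in benign samples 1, 2 and 5, so the members' fold changes and ratios and the pathway counts were also computed without them. In whole tissue, fewer cells of a type and less RNA per cell cannot be told apart.

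Of the 9 genes, 4 were lower in tumors (Akt2, Pck1, Pde3b and Trarg1), 3 were higher (Irs1, Irs2 and Tbc1d4), and Insr and Foxo1 did not pass the test. Among all genes tested 63.0% passed, 34.8% lower and 28.2% higher, so 7 of 9 is to be read against a comparison in which most genes passed. The median log2 fold change of the 9 was -0.21, against -0.06 over all genes. For 3 of the 4 genes that fell, the size of the fall stood out more than the number of falls. Pck1 had the 67th lowest log2 fold change of the 13191 genes, Trarg1 the 101st and Pde3b the 415th. The fall of Akt2 was less unusual: it ranked 2018th, and 15.3% of all genes had a log2 fold change as low or lower. Every tumor lay below every benign sample for all 4 genes that fell, a pattern that 21.2% of all genes showed (35.9% had groups apart in either direction). The groups overlapped for the 3 genes that rose. Without benign samples 3, 4 and 6 the same 4 genes fell and the same 3 rose.

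**Figure D1:**
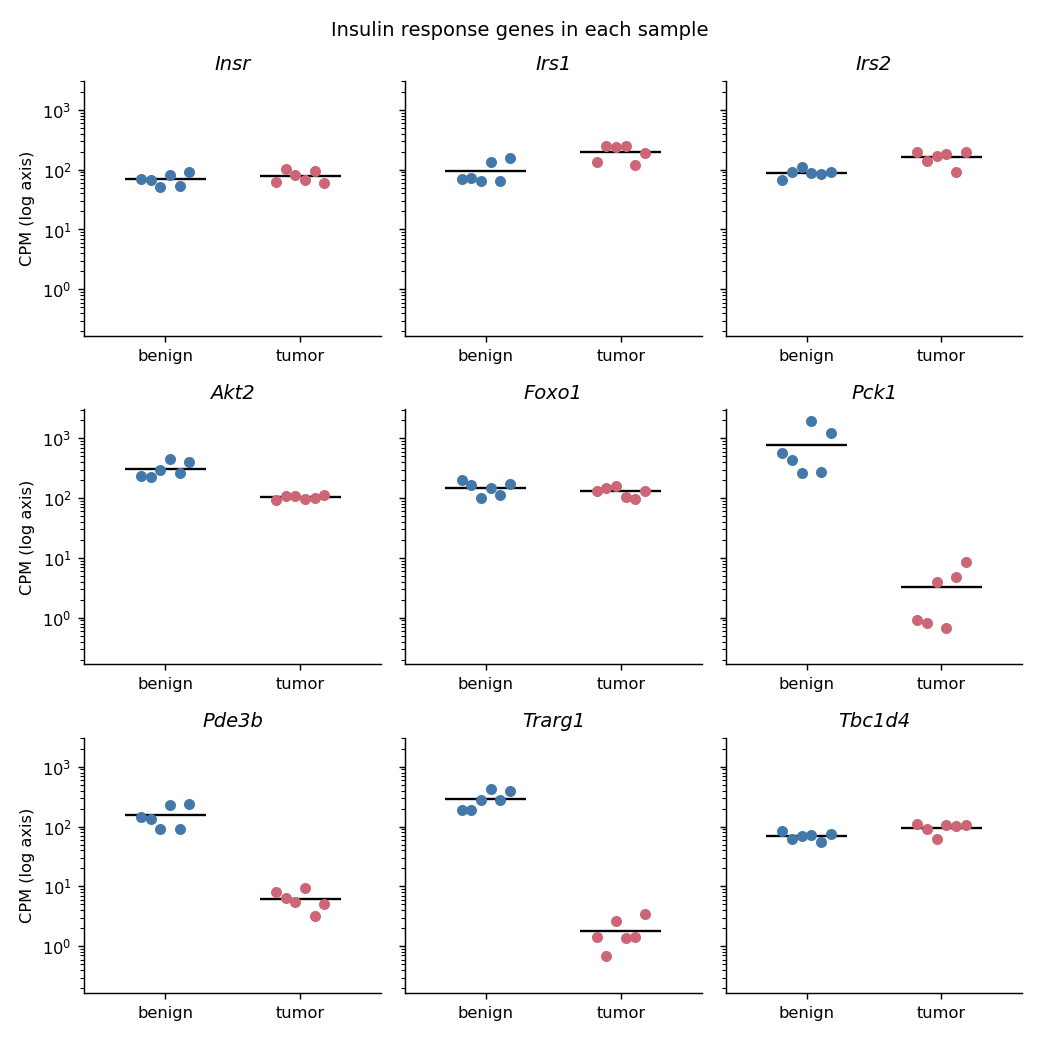
Level of each of the 9 genes in every sample, in CPM on a log axis, with benign samples and tumors side by side, the bar at the group mean (n = 6). Pck1, Pde3b and Trarg1 lie below 10 CPM in every tumor and above 80 CPM in every benign sample, while Insr and Foxo1 overlap.

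At the top of the pathway stands Insr, the insulin receptor (chr8:3122061-3279617, minus strand; this and the gene positions below are from GENCODE M21 on GRCm38). Its benign levels were 50.9 CPM at the lowest, 68.1 at the median and 92.1 at the highest, and its tumor levels 59.7, 75.1 and 102 CPM. Tumors 2 and 5 lay above all benign samples and the other 4 within their range. The log2 fold change was 0.18 (SE 0.18), with an edgeR adjusted p of 0.42. Igf1r, the closely related receptor for insulin-like growth factors, averaged 40.3 ± 8.44 CPM in benign samples and 39.0 ± 14.8 CPM in the tumors (edgeR adjusted p = 0.88). The balance of the 2 receptors within a library, as log2 of Insr over Igf1r, was 0.77 ± 0.21 in benign tissue and 1.06 ± 0.54 in tumors, a difference of 0.28 that did not pass an exact permutation test (two-sided, p = 0.27, or 0.31 adjusted over 7 such ratios). Tumor 5 had the highest of these ratios, 2.07.

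The docking proteins came next in the chain, and Irs1 (chr1:82233101-82291416, minus strand) and Irs2 (chr8:10984681-11008458, minus strand) both rose. The 250 bases before each gene's RefSeq start on GRCm38.p6 are shown because these 2 genes both rose and because Irs2 is a known FOXO target. Windows of 6 of the 9 genes were matched, and Insr, Pde3b and Trarg1 had none. Capitals mark every match to 4 motifs searched on both strands: the E-box CACGTG, the core of the insulin response element CAAAACA, which reads as TGTTTTG on the other strand, the FOXO core GTAAACA and the cyclic AMP response element variant TTACGTCA. The motifs were chosen with these sequences in view.
Irs1, chr1:82291440-82291689, minus strand: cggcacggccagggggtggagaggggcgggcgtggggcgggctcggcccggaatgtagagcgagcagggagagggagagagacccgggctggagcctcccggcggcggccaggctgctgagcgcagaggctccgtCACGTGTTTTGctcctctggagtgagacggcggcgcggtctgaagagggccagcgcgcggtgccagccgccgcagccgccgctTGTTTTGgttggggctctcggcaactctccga
Irs2, chr8:11008930-11009179, minus strand: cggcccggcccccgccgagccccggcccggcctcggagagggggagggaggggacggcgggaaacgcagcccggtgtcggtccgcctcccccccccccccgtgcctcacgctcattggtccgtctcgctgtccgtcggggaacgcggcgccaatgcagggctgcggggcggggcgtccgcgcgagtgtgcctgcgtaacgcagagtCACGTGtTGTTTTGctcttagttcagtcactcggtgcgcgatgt
Both windows hold an E-box beside a TGTTTTG. In Irs1 the E-box begins 115 bases before the start and shares its last letters with a TGTTTTG that begins 111 bases before it, with another TGTTTTG at 32. In Irs2 the E-box begins 44 bases and the TGTTTTG 37 bases before the start. Distances are to the RefSeq starts, which lie 23 bases (Irs1) and 471 bases (Irs2) upstream of the GENCODE starts given above. Of 32851 windows in the RefSeq table, 6.02% hold the E-box, 5.56% the insulin response core, 3.17% the FOXO core and 0.295% the E-box and the insulin response core together. These matches describe letters, not bound sites. The windows of Foxo1, Akt2 (4 windows) and Tbc1d4 held none of the 4 motifs.

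Irs1 encodes the docking protein most used in fat and muscle. It ranged from 63.3 CPM through a median of 71.2 to 155 CPM in benign tissue, and from 117 through 216 to 249 CPM in tumors. Benign samples 4 and 6, at 134 and 155 CPM, reached into the range of the tumors, and 4 of 6 tumors lay above every benign sample. The mean rose from 93.2 ± 40.6 to 197 ± 58.8 CPM, a log2 fold change of 1.08 (SE 0.28, edgeR adjusted p = 0.0056). Without benign samples 3, 4 and 6 it was 1.56. Irs2, the docking protein on which liver and beta cells rely most, ran from 67.3 through 88.7 to 111 CPM in benign tissue and from 93.0 through 177 to 199 CPM in tumors. Tumor 5 alone fell within the benign range. The mean rose from 88.6 ± 14.0 to 163 ± 41.1 CPM, a log2 fold change of 0.88 (SE 0.18, edgeR adjusted p = 0.00116). The 2 docking genes did not shift measurably against each other: log2 of Irs2 over Irs1 was 0.02 ± 0.62 in benign tissue and -0.26 ± 0.49 in tumors, and the difference of -0.27 had an exact permutation p of 0.41.

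Akt2 (chr7:27591552-27640826, plus strand) encodes the AKT isoform that insulin uses most in fat, muscle and liver. It ranged from 228 through 276 to 444 CPM in benign tissue and only from 93.1 through 104 to 112 CPM in tumors. The 6 tumors were almost level, and all lay below the lowest benign sample. The mean fell from 309 ± 90.0 to 103 ± 7.66 CPM, a log2 fold change of -1.59 (SE 0.17, edgeR adjusted p = 6.0e-06). Without benign samples 3, 4 and 6, of which 4 and 6 had the highest levels of all at 444 and 395 CPM, the log2 fold change was -1.18. Akt1, the isoform best known for growth and survival, was at 218 ± 39.7 CPM in benign samples and at 236 ± 12.4 CPM in the tumors (edgeR adjusted p = 0.47). As log2 of Akt2 over Akt1 in the same library, the balance of the 2 isoforms moved from 0.48 ± 0.58 to -1.20 ± 0.16, a difference of -1.67 (two-sided exact permutation, p = 0.0038 adjusted over 7 ratios). In benign samples 1, 2, 3 and 5 the log2 ratio was only 0.004 to 0.28, with 1.11 and 1.31 in samples 4 and 6, and in tumors it was -1.39 to -0.98. Per kilobase of a gene's annotated exons, merged, Akt1 had the higher benign mean, 53.2 ± 9.70 CPM per kb against 43.4 ± 12.6 for Akt2. This gap was smaller than the SD of Akt2. The unadjusted p, 0.00216, is the smallest that an exact permutation test of 6 against 6 can give.

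**Figure D2:**
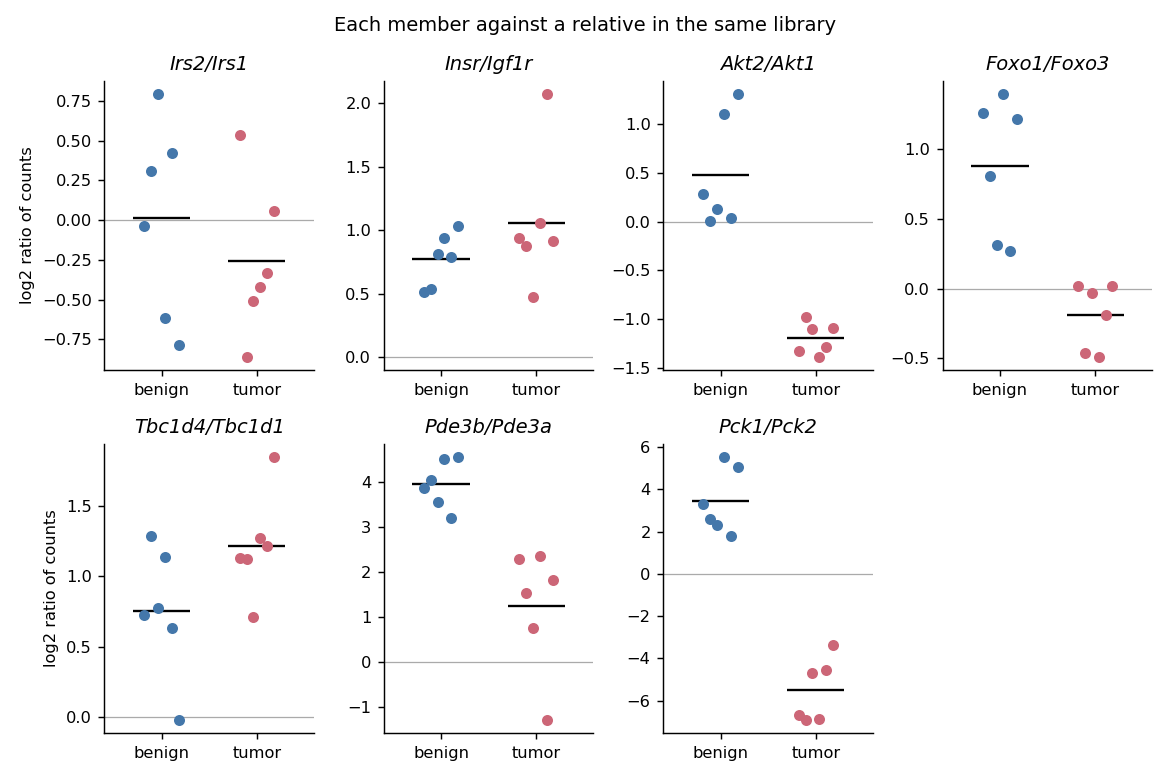
Log2 ratio of each member to a relative in the same library, for every benign sample and tumor, with the bar at the mean (n = 6) and a grey line at 0 where both genes have equal counts. Akt2/Akt1, Foxo1/Foxo3, Pde3b/Pde3a and Pck1/Pck2 do not overlap between groups, with the tumors lower, whereas Irs2/Irs1, Insr/Igf1r and Tbc1d4/Tbc1d1 do.

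Foxo1 (chr3:52268336-52353221, plus strand) encodes the transcription factor that AKT restrains. It had 100.3 CPM at the lowest, 155 at the median and 204 at the highest in benign tissue, against 96.3, 133 and 159 CPM in tumors. The ranges overlapped almost fully, with only tumor 5 below all benign samples. The log2 fold change was -0.21 (SE 0.18, edgeR adjusted p = 0.35). Its relative Foxo3, which AKT restrains in the same way, rose from 80.5 ± 14.3 to 148 ± 33.5 CPM, with every tumor above every benign sample (log2 fold change 0.88). Within a library, log2 of Foxo1 over Foxo3 fell from 0.87 ± 0.49 to -0.19 ± 0.24, a difference of -1.06 (exact permutation, p = 0.0038 adjusted over 7 ratios), so the 2 factors had close to equal counts in tumors.

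Pck1 (chr2:173153048-173159273, plus strand) encodes cytosolic phosphoenolpyruvate carboxykinase, an enzyme of gluconeogenesis in liver and of glycerol synthesis for fat storage in adipocytes. Its promoter window is shown because it is a well known case of control by cyclic AMP and insulin.
Pck1, chr2:173152823-173153072, plus strand: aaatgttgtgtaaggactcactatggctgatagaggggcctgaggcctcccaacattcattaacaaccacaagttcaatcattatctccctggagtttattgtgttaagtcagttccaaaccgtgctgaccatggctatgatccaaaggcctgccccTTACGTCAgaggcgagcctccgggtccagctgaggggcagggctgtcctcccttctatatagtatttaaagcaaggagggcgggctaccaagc
The capitals mark the cyclic AMP response element variant TTACGTCA, which begins 93 bases before the RefSeq start (position 173153073, within the GENCODE gene) and is held by 0.447% of all windows. In benign tissue Pck1 ranged from 259 through 499 to 1935 CPM, and in tumors from 0.675 through 2.45 to 8.45 CPM. Benign sample 4 had the highest level and sample 6 the next, 1207 CPM, so the benign samples themselves differed 7.48-fold. The mean went from 779 ± 664 to 3.27 ± 3.09 CPM, 239-fold lower, on 5 to 77 counts a tumor, and the log2 fold change was -7.86 (SE 0.85, edgeR adjusted p = 5.5e-06). Without benign samples 3, 4 and 6 it was -6.92, a fold that is 1.92 times smaller. Pck2, the mitochondrial form of the enzyme, rose from 56.0 ± 16.7 to 100.03 ± 10.5 CPM, with all tumors above all benign samples (log2 fold change 0.84). Log2 of Pck1 over Pck2 thus fell from 3.44 ± 1.53 to -5.51 ± 1.51: the cytosolic form had more counts in all 6 benign samples, the mitochondrial form in all 6 tumors.

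Pde3b (chr7:114415281-114539251, plus strand), the phosphodiesterase through which insulin restrains lipolysis, ranged from 89.5 through 140 to 241 CPM in benign tissue and from 3.20 through 6.0003 to 9.31 CPM in tumors. Again benign samples 4 and 6 were the highest, and the lowest benign sample was far above the highest tumor. The mean went from 155 ± 65.2 to 6.27 ± 2.16 CPM, 24.7-fold lower, on 25 to 69 counts a tumor, and the log2 fold change was -4.63 (SE 0.34, edgeR adjusted p = 1.6e-07). Its relative Pde3a, best known from heart and platelets, fell from 9.21 ± 1.04 to 3.02 ± 2.49 CPM (log2 fold change -1.60, edgeR adjusted p = 0.0038). Pde3b fell by more, since log2 of Pde3b over Pde3a went from 3.96 ± 0.53 to 1.24 ± 1.37, a difference of -2.72 with no overlap (exact permutation, p = 0.0038 adjusted over 7 ratios).

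Trarg1 and Tbc1d4 act on the traffic of GLUT4 vesicles and moved in opposite directions. Trarg1 (chr11:76679808-76698664, plus strand), a membrane protein of GLUT4 vesicles found mainly in adipocytes, ranged from 189 through 277 to 420 CPM in benign tissue and from 0.688 through 1.40 to 3.40 CPM in tumors. All tumors were near the limit of counting, at 5 to 31 counts. The mean went from 292 ± 99.1 to 1.816 ± 1.004 CPM, 161-fold lower, with a log2 fold change of -7.29 (SE 0.39, edgeR adjusted p = 1.3e-08). Its cargo partner Slc2a4, which encodes GLUT4 and is not among the 9 genes, went from 340 ± 176 to 3.37 ± 2.01 CPM (log2 fold change -6.64, or -5.80 without benign samples 3, 4 and 6).

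Tbc1d4 (chr14:101442360-101609191, minus strand), the RAB regulator that AKT phosphorylates, ranged from 54.2 through 69.6 to 85.2 CPM in benign tissue and from 62.8 through 103 to 109.7 CPM in tumors. Tumor 3 lay within the benign range and the other 5 above it. The mean rose from 69.4 ± 10.8 to 95.8 ± 17.4 CPM, a log2 fold change of 0.47 (SE 0.15, edgeR adjusted p = 0.0162). Its relative Tbc1d1, best known from muscle, was at 43.4 ± 18.5 CPM in benign samples and at 41.1 ± 6.88 CPM in the tumors (edgeR adjusted p = 0.80). The difference in log2 of Tbc1d4 over Tbc1d1, 0.46, had an exact permutation p of 0.145 adjusted over 7 ratios.

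**Figure D3:**
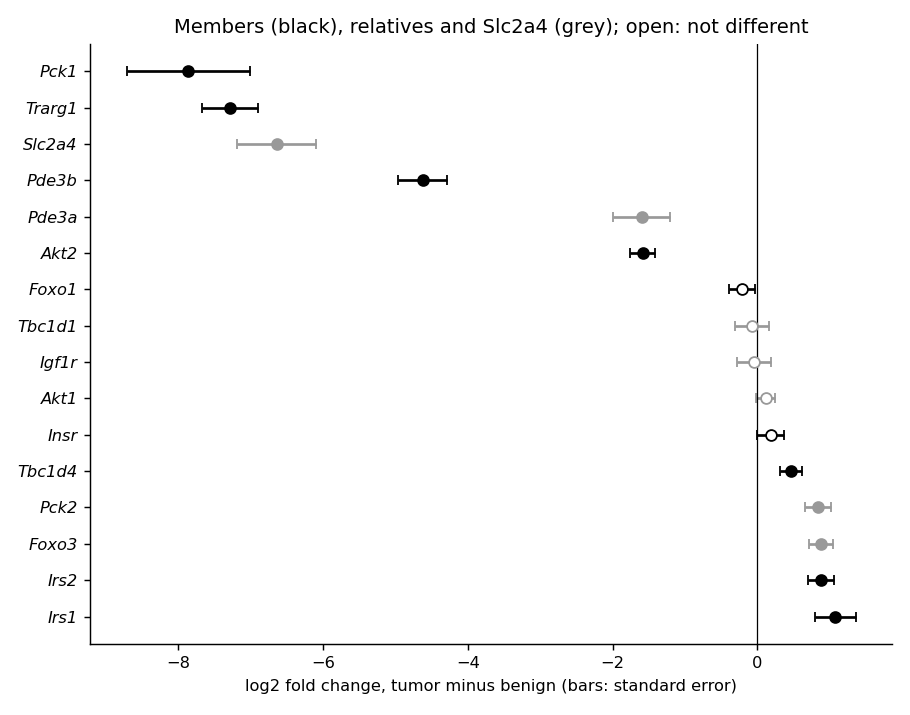
Log2 fold change of tumor over benign for the 9 genes (black), their relatives and Slc2a4 (grey), with bars at 1 SE from edgeR and open symbols for genes that did not pass. The 3 largest falls among the 9 genes are those of Pck1 (-7.86), Trarg1 (-7.29) and Pde3b (-4.63), and the largest rise is that of Irs1 (1.08).

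The order of the 9 genes turned over between the groups. Per kilobase of merged exons, benign tissue had most Pck1 (227 ± 194 CPM per kb), then Trarg1 (88.3 ± 30.0) and Akt2 (43.4 ± 12.6). Foxo1 (17.3), Pde3b (17.0), Irs2 (14.0), Irs1 (10.2) and Tbc1d4 (9.04) followed, each of these neighbours closer to the next than 1 SD, and Insr (5.02) came last. Trarg1 lay above Akt2, Akt2 above Foxo1, and Tbc1d4 above Insr by more than 1 SD, while Pck1 and Trarg1 were apart by less than the SD of Pck1. In tumors Irs2 (25.8 ± 6.50 CPM per kb) and Irs1 (21.5 ± 6.43) led and differed by less than their spread. Foxo1 (14.9), Akt2 (14.4) and Tbc1d4 (12.5) were also closer than 1 SD to each other, Insr (5.69) lay below them, and Pck1 (0.952), Pde3b (0.688) and Trarg1 (0.550) closed the list, again within their spread. The genes whose tumor level was lowest thus included those whose benign level was highest. Samples of a group varied by a median of 29.1% (CV) in benign tissue and 25.2% in tumors over the 9 genes, against 23.2% and 20.6% over all genes tested.

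Markers of fat moved with the 4 genes that fell. The summed level of 10 adipocyte markers ran from 12486.5 to 26584.5 CPM in benign tissue and from 45.1 to 174 CPM in tumors, and all 10 fell, with a median log2 fold change of -7.89. None was at 0 in every tumor. Adipoq, the adipocyte hormone adiponectin, had 796 to 1409 CPM in benign samples and 0.895 to 6.91 CPM in tumors. The log2 fold changes of these markers ran from -9.37 (Lep) to -5.77 (Lipe), a range that holds those of Pck1 and Trarg1, while the falls of Pde3b and Akt2 were smaller than that of any of the 10 markers. Their part in the falls was not tested.

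Other markers also moved. All 6 endothelial markers (550.5 to 1083 CPM summed in benign tissue, 80.5 to 99.9 in tumors) and all 6 fibroblast markers (3756 to 10201 CPM against 376 to 896) fell. Of 8 epithelial markers, 5 rose (Epcam, Cdh1, Krt8, Krt18 and Elf5) and 3 fell (Krt19, Krt5 and Krt14), with sums of 976 to 2637 CPM in benign tissue and 2535 to 4124 CPM in tumors. Of 7 leukocyte markers, 4 of the 5 that could be tested fell, and their sum ran from 304 to 1526 CPM in benign tissue and from 201 to 347 CPM in tumors. Benign sample 1 set the top of that range, with 537 CPM the highest of the other benign samples. Without it Ptprc (log2 fold change 0.15, edgeR adjusted p = 0.58) and Csf1r (-0.35, edgeR adjusted p = 0.27) no longer passed, which left Cd68 and Lyz2. Of 7 brown fat markers, 3 of the 5 tested fell. Benign samples 4 and 6, where Akt2, Pck1, Pde3b, Trarg1 and Irs1 were highest, had the highest sums of brown fat markers (2988 and 820 CPM, against 40.0 to 181 in the other benign samples), with Ucp1, the uncoupling protein that defines brown fat, at 1434 and 217 CPM. The sum of the adipocyte markers was also highest there, at 26584.5 and 22362.5 CPM, against 12486.5 to 18602.1 CPM in the other benign samples. They were also among the 3 samples with muscle transcripts. The other, benign sample 3, had a higher muscle sum than sample 4 (56369.5 against 35903.9 CPM) but a brown fat sum of 181 CPM. Its Pck1 level, 259 CPM, was the lowest of the benign samples. Its levels of Pde3b (91.4 CPM), Trarg1 (273 CPM) and Irs1 lay within the range of samples 1, 2 and 5. Only its Akt2 level, 294 CPM, lay above that range. Whether the high levels in samples 4 and 6 went with fat, brown fat or muscle was not tested. All 6 muscle markers that could be tested fell, on the 3 samples with muscle transcripts. Ckm, the muscle creatine kinase, had 5386, 3586 and 8572 CPM in benign samples 3, 4 and 6. Its level was at most 29.0 CPM in any other sample.

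**Figure D4:**
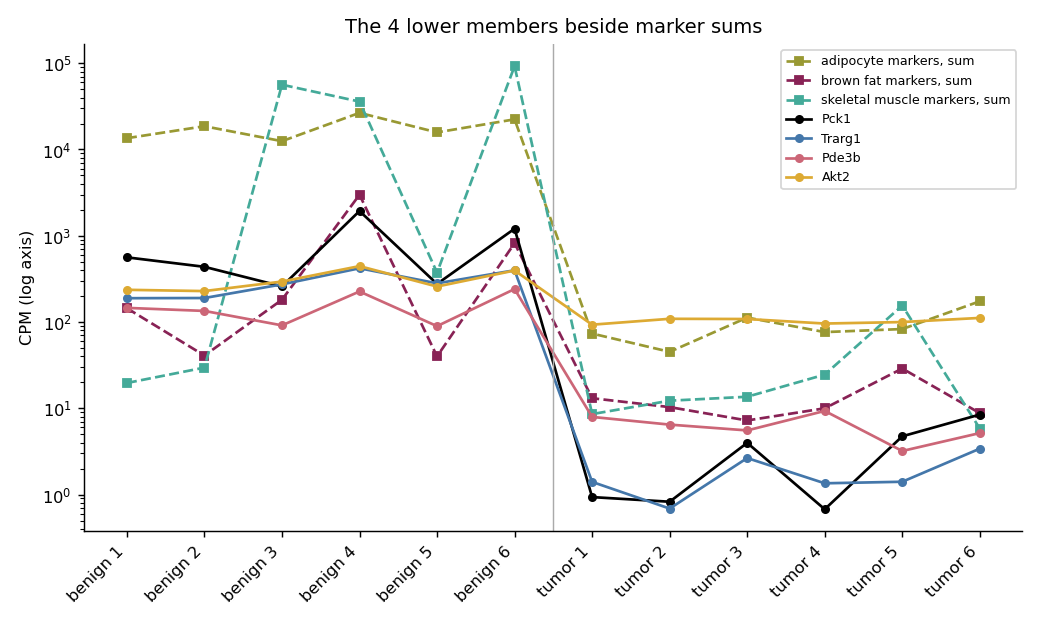
Levels of Akt2, Pck1, Pde3b and Trarg1 in each of the 12 samples beside the summed levels of the adipocyte, brown fat and skeletal muscle markers, in CPM on a log axis. The adipocyte sum is 12486.5 CPM or more in each benign sample and 174 CPM or less in each tumor, and the muscle sum is highest in benign samples 3, 4 and 6.

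The rest of the pathway was described with 7 lists of 180 genes in all, without the 9 members. Of these, 178 were in the table and 170 could be tested: 83 fell (48.8%), 44 rose (25.9%) and 43 did not pass, with a median log2 fold change of -0.37. Beside these and the counts below stand the 34.8% of all genes that fell and the 28.2% that rose, and no list was tested against them. Among receptors and docking proteins, 10 of 23 fell and 9 rose (median -0.05). Irs3, a docking protein of rodent adipocytes, went from 33.9 ± 11.6 to 0.905 ± 0.936 CPM (log2 fold change -5.18, or -5.80 without tumor 5, which had the highest tumor level), and Cav1, the coat protein of caveolae, had a log2 fold change of -5.93. Enpp1, a membrane enzyme that can bind and inhibit the insulin receptor, rose from 17.0 ± 6.77 to 158 ± 41.1 CPM (log2 fold change 3.21), and Ceacam1, a receptor substrate that promotes insulin clearance, rose by 2.03. The lists on the kinases and on FOXO held more genes that rose than fell: 14 of 30 genes from PI3-kinase to AKT and mTORC1 rose and 5 fell, and 9 of 20 FOXO factors and fasting genes rose and 6 fell. Trib3, a pseudokinase that binds AKT, had a log2 fold change of 3.01, and Phlpp1, a phosphatase that acts on AKT, one of 2.55. Eif4ebp1, the translation repressor controlled by mTORC1, had one of -2.29, and Pik3cd, the PI3-kinase subunit of leukocytes, one of -2.49. The size of the Pik3cd fall rested on benign sample 1 (196 CPM, against 15.8 to 19.3 in the other 5). Without that sample its log2 fold change was -1.02 and still passed (edgeR adjusted p = 0.00197). The summed leukocyte markers and 5 of the 7 single ones were also highest in benign sample 1.

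Among the FOXO and fasting genes, Trib1 (log2 fold change 2.99), a pseudokinase, and Cited2 (2.52), a partner of the coactivator p300, rose most. Pcx, which encodes pyruvate carboxylase, fell from 787 ± 159 to 62.3 ± 8.14 CPM. Pdk4, the kinase that switches off pyruvate dehydrogenase in fasting, fell from 205 ± 244 to 1.33 ± 0.696 CPM, a log2 fold change of -7.26 that was -6.44 without benign sample 4 and -5.55 without samples 3, 4 and 6. In the GLUT4 list 12 of 28 genes fell and 4 rose (median -0.21). The largest fall after Slc2a4 was that of Cdh13 (-3.42), a receptor for adiponectin rather than a vesicle protein, and the rises were led by Slc2a1 (2.03), which encodes GLUT1, the glucose transporter of most cells, and Rhoq (0.80), a small GTPase of GLUT4 traffic.

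In the 3 lists on stored fuel most genes fell. Of 21 glycogen genes 15 fell and 3 rose (median -2.14), but without benign samples 3, 4 and 6 these counts were 9 and 5, with a median of -0.36, the same share of falls as in the GLUT4 list (12 of 28). Pygm, the glycogen phosphorylase of muscle, had 1434 to 3835 CPM in those 3 samples and 3.58 to 13.2 CPM in the other benign samples, and its log2 fold change of -8.70 became -1.28 (edgeR adjusted p = 0.24) without them. Gys2, the glycogen synthase best known from liver, had 117 ± 54.7 CPM in benign tissue and at most 2 counts in any tumor, at least 283-fold lower when the tumor level is set to 3 counts a library, or 197-fold without those samples. Phkg2 (0.70) and Ppp1cb (0.69), subunits of phosphorylase kinase and protein phosphatase 1, rose. Of 23 genes of lipolysis, the process that Pde3b restrains, 16 fell and 3 rose (median -1.61). Plin1, the coat protein of fat droplets, had a log2 fold change of -8.49. The 2 beta-adrenergic receptors on that list moved apart: Adrb3, the receptor of adipocytes, fell from 224 ± 100.3 to 0.529 ± 0.984 CPM (log2 fold change -8.54, or -10.46 without tumor 6, where most of its tumor counts lay), whereas Adrb1 rose from 15.5 ± 7.33 to 126 ± 44.7 CPM (3.04). Gk, glycerol kinase, rose by 1.49. Of 25 lipogenic genes 19 fell, each with every tumor below every benign sample, and 2 rose (median -2.93). Lpl, which releases fatty acids from lipoproteins for uptake, had a log2 fold change of -7.58. Angptl8, an insulin-induced inhibitor of that lipase, had 40.0 ± 33.7 CPM in benign tissue and no counts in any tumor, at least 96.6-fold lower by the same floor, or 59.3-fold without benign samples 3, 4 and 6. The 2 that rose were Srebf1, the transcription factor of lipid synthesis, from 589 ± 98.1 to 2206 ± 791 CPM (1.91), and the desaturase gene Scd2 (0.53), which no longer passed without benign sample 6 (edgeR adjusted p = 0.106) or without samples 3, 4 and 6 (0.17). Several of these genes, such as Plin1 and Lpl, are also adipocyte markers.

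**Figure D5:**
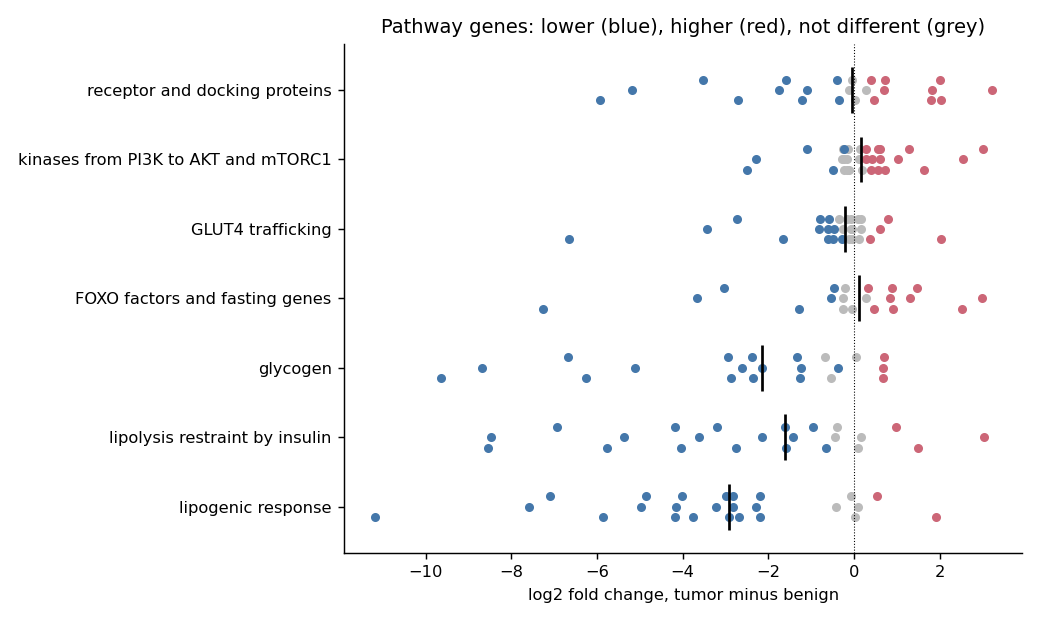
Log2 fold change of tumor over benign for each tested gene of the 7 pathway lists, coloured by whether it was lower, higher or not different by edgeR at an adjusted p under 0.1, with a black bar at each list's median. The glycogen, lipolysis and lipogenic lists have medians of -2.14, -1.61 and -2.93, the other 4 lists medians between -0.21 and 0.15.

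Each gene was also matched to the genes whose profile over the 12 samples was most like its own, as the root mean square difference of log2 CPM after each profile was centred on its mean. This measure rewards a like difference between groups and a like order within them, and is a description only. Pck1 was nearest to Cfd (0.60) and Fabp4 (0.71), both adipocyte markers, and Trarg1 to Plin4 (0.26) and Fgf10 (0.34). Pde3b was nearest to Fzd4 (0.37) and Glul (0.38), and Akt2 to Prps1 (0.15) and Tmem184b (0.16). For the genes that rose, the nearest were Scarb2 (0.29) and H2aw (0.32) for Irs1, Nfix (0.14) and Slc35a1 (0.17) for Irs2, and Ralgapa1 (0.15) and Gtpbp8 (0.15) for Tbc1d4. Prkaa1 (0.16) was among the genes most like Insr, and Foxo1 was nearest to Invs (0.15) and Tbl1xr1 (0.16).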

How the data were processed

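Poly(A)-selected RNA was prepared as directional libraries. The authors deposited estimated counts per gene for 12 libraries. The submitters' processing notes name Trim Galore, Salmon, DESeq2 and the build mm10, with versions not given in the sources used here. The deposited counts were converted to whole numbers by dropping any decimals and tested in R 4.3.3 with edgeR 4.0.16 (TMM scaling, filterByExpr with a minimum count of 10 and a minimum total of 15, quasi-likelihood test, adjusted p under 0.1). All 12 samples entered 1 fit without covariates. CPM used the effective library sizes of that fit. Genes tested held 93.6% to 99.9% of a library's counts. Ratios of relatives used 0.5 added counts and two-sided exact permutation tests, adjusted over 7 ratios. The floors cover counting error only, whereas the SEs come from the edgeR fit and include the spread between samples. The labels do not say that samples of a group came from separate mice, so p-values measure the spread between these samples. No 2 replicates agreed within sampling noise (chi-square per degree of freedom at least 12.5). Lengths and gene positions came from GENCODE M21 on GRCm38 (the annotation behind the deposited counts is not given in the sources used here) and promoters from RefSeq on GRCm38.p6. The members and lists were chosen with earlier results of these data known. Named pathway genes were the 2 that rose and the 2 that fell most in each list, among genes with at least 10 CPM in the higher group. Alternatives were DESeq2 1.42.0, other scalings and filters, a replicate block, a threshold of 0.05, leaving out each sample and leaving out benign samples 3, 4 and 6, the last because earlier results of these data had shown muscle transcripts there. Some genes that the rules would name are not reported here.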

Additional observations from a re-analysis of the deposited data

Results flagged for a closer look

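Of 32 groups of 6 values examined with Dixon's test, 2 held a sample that stood apart, and chance alone flags about 1 in 20 groups. Tumor 3 had a Tbc1d4 level of 62.8 CPM, against a median of 103 CPM over the tumors (gap over range 0.662). Tumor 5 had the highest log2 ratio of Insr to Igf1r, 2.07, against a tumor median of 0.93 (gap over range 0.634).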

How the results depend on the processing

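Over up to 20 alternatives, the log2 fold change of each of the 9 genes kept its direction and its side of the threshold wherever it could be computed. The number of members that rose stayed at 3. The number that fell was 4 except where at least 10 counts in every sample were required, which left 2, because that filter removes Pck1 and Trarg1. With the replicate block, 4 members fell and 3 rose as well (Irs1 had a log2 fold change of 1.12). The shared numbers mark no shared mouse, since tumors and benign tissue came from different mice. Same-numbered samples correlated between -0.12 and 0.10, and 0 of 12 samples correlated best with their own number. Such correlations between unlike tissues could not by themselves exclude a shared mouse. Scaling by total counts moved the median of all genes by 0.12 (log2) and changed no member's direction. Leaving out 1 sample at a time, the ratio of Insr to Igf1r differed by 0.082 to 0.40 and passed without tumor 3 (0.40, two-sided exact permutation p = 0.063 adjusted). The ratio of Tbc1d4 to Tbc1d1 differed by 0.30 to 0.56 and passed without benign 2 (0.56, p = 0.045), benign 4 (0.53, p = 0.079) or tumor 3 (0.56, p = 0.055), by the same exact permutation test. The other 5 ratios kept their calls. Depth limits Pck1 and Trarg1, which had as few as 5 counts in a tumor.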
